A study of Mus musculus with 6 samples.

Results

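Tight junctions seal neighbouring epithelial cells to each other, and 9 genes of these junctions were followed in the cochlea of wild-type (WT) and *Cmah*-null mice. They were *Cldn11*, *Cldn14*, *Cldn9*, *Cldn1*, *Cldn3*, *Cldn4*, *Ocln*, *Marveld2* and *Tjp1*, taken by gene symbol from the 18138 gene symbols of the array, and each had 1 probe. The study asked how gene expression differs in the cochlea of aged mice without *Cmah*, which encodes the enzyme that makes the sialic acid Neu5Gc. Both groups were of the strain C57BL/6 (C57BL/6J in the study's methods), which itself loses hearing with age, and were 12 months old: 3 Wild type samples and 3 *Cmah*-null samples of a knockout line. The labels give neither the sex nor the number of mice behind a sample. The study's methods give n = 3 for each group of mice, without saying whether a sample is a single mouse. The p-values therefore measure the spread between these samples, which may be technical. The normalized table names the second group "old", and its columns were assigned to the *Cmah*-null samples by elimination and by replicate number.

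Between 13873 and 15223 of 25697 probes were detected on an array (detection p under 0.05). The arrays of *Cmah*-null replicates 1 and 2 differed least, with an SD of the log2 difference over probes of 0.13, and the other pairs had 0.31 to 0.64. For the members and the other genes named as called, the value with these arrays averaged is given where that changed a call. The single *Cmah* probe read 7.27, 7.28 and 7.87 in WT and 7.95, 7.98 and 7.27 in *Cmah*-null samples on the log2 scale, and was detected on 3 of the 6 arrays. Whether it lies in the deleted part of the gene is not given in the sources used here, so it checks no genotype, and the direction of every difference rests on the sample labels. Of 9 strial marginal cell markers 6 were detected on all 6 arrays, *Slc12a2* and *Bsnd* among them, while *Kcne1* was detected on 5, *Kcnq1* on 2 and *Atp13a5* on none. Of 11 measured hair cell markers 4 were detected on all 6 arrays and 3 on none, and the 3 were *Pou4f3*, *Slc26a5* and *Strc*.

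Claudins are membrane proteins with 4 passes that form the strands of the junction and set which ions cross it. Occludin and tricellulin join the strands, the latter where 3 cells meet, and ZO-1 ties them to the actin skeleton. In the cochlea these junctions keep the potassium-rich endolymph apart from perilymph, around the hair cells and in the stria vascularis. Mice or people lacking *Cldn9*, *Cldn11*, *Cldn14* or *Marveld2* are deaf or lose hearing.

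A level on this array is the signal of a probe of 50 bases, so the signals below speak for the transcripts that these sequences match, and the first 30 bases are shown for the members on which the results turn. *Cldn3* (ILMN_2634167) and *Cldn4* (ILMN_1223949) had the largest differences, *Cldn11* (ILMN_1246139) is the claudin of the strial barrier, *Tjp1* (ILMN_2706587) had the widest spread within a group, and *Cldn14* (ILMN_1234745) and *Marveld2* (ILMN_2620209) were detected on no array.
*Cldn3*: ctgtccaagccgaatggacaaagaaacctc
*Cldn4*: tctgagttccctccctttgcccatttcaag
*Cldn11*: gtgtctaagactctggatactgcaagctcc
*Tjp1*: ggcacatcagcacgatttctgtttagataa
*Cldn14*: ttatcctgccaggacgaggccccctacaga
*Marveld2*: ttaaacgttaaacacacttaactttgtgag
The GC content of the 9 probes ran from 28.0% for *Marveld2* to 66.0% for *Cldn14*, and those were the members not detected. Over 36 pairs of member probes the longest run of bases shared by a pair, on either strand, was 8, so these probes differ from each other. They were not compared with the transcripts of other genes, so whether a probe also reads another transcript was not tested. The *Cldn3* probe starts at base 1095 of the transcript the array was designed on, that of *Tjp1* at base 6908 and that of *Marveld2* at base 1691 of transcript variant 2. Whether a probe lies in coding sequence or a UTR was not analysed here. Other transcripts of *Marveld2* and *Tjp1* that lack these bases would not be read. Levels of different probes are not compared with each other. The annotation in the files places *Cldn3* and *Cldn4* on chromosome 5, *Ocln* and *Marveld2* on chromosome 13, *Cldn1* and *Cldn14* on chromosome 16, *Cldn11* on chromosome 3, *Tjp1* on chromosome 7 and *Cldn9* on chromosome 17.

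Of the 9 members, 7 were detected on all 6 arrays and 2 on none. None reached 1.5-fold with an unadjusted p under 0.05 in limma, where 2.71% of all probes did. The cut-offs are those of the study, but the p is limma's and not the local pooled error p that its authors deposited. None had a Benjamini-Hochberg adjusted p under 0.05 in limma, as for all probes (0%), and 0 members had an unadjusted p under 0.05. The share of all probes at that unadjusted p alone was not computed. By size alone *Cldn3* and *Cldn4* passed 1.5-fold, both higher in *Cmah*-null samples. The share past 1.5-fold in either direction was 5.95% of all probes, and 5.17% of the 12410 probes detected on all 6 arrays were higher by that much. Of the 7 detected members, 5 had a higher and 2 a lower mean in *Cmah*-null samples. The median difference of the 7 was 0.15 on the log2 scale, and that of all 9 0.14, against 0.026 for all probes detected on all 6 arrays and 0.0020 for all probes. Each member median is the value of a single gene, *Cldn11* for the 7 and the undetected *Marveld2* for all 9. Neither is read as a shift of the members as a set. In bulk tissue, fewer cells of a type and less RNA per cell cannot be told apart.

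**Figure D1:**
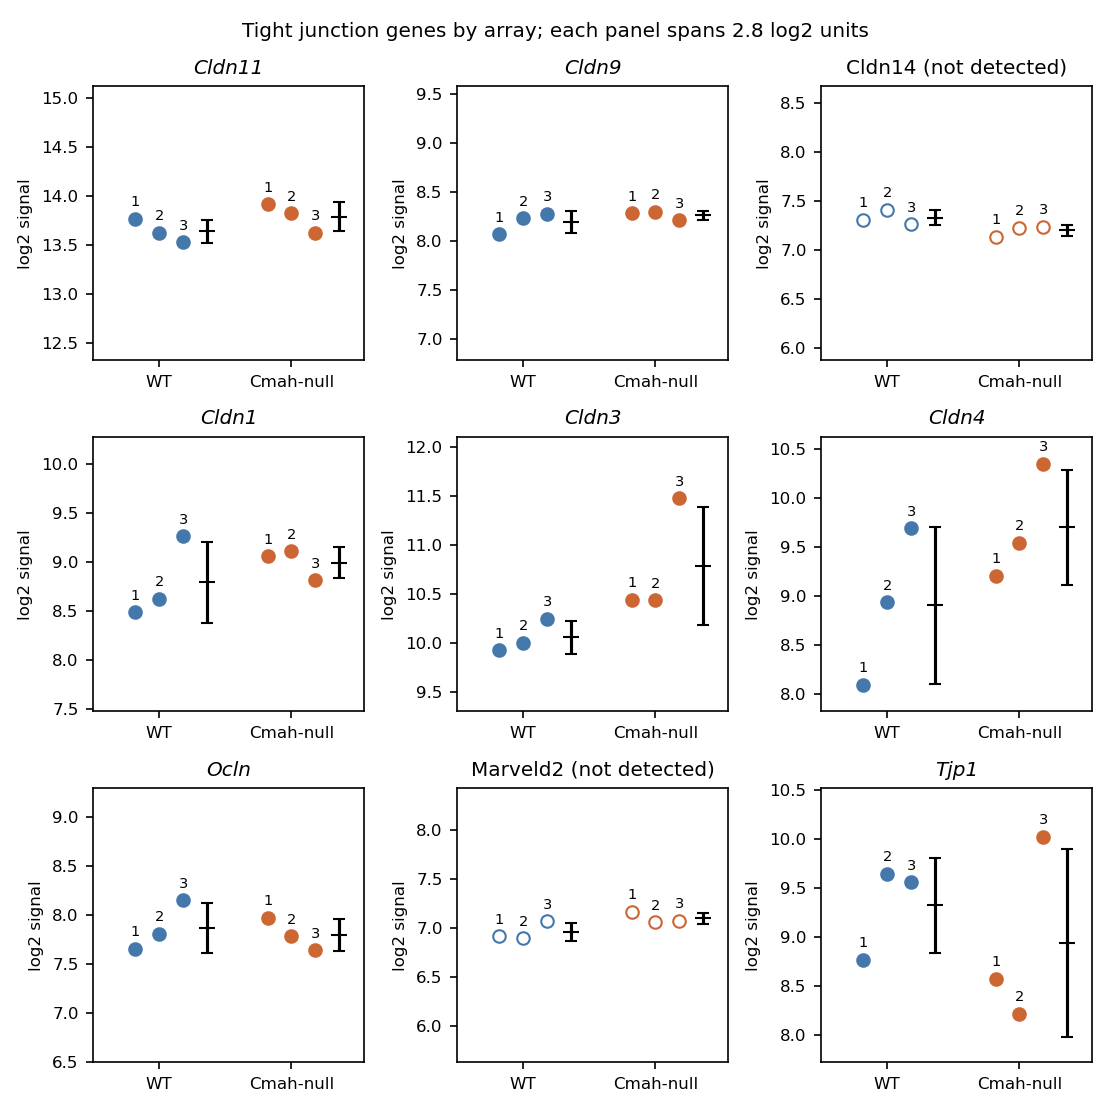
Log2 signal (y axis) of the 9 tight junction genes on each of the 3 WT and 3 *Cmah*-null arrays (points, numbered by replicate), with the group mean and SD as bars and the same y span in every panel; open points were detected on no array. *Cldn3* separates the groups (9.93 to 10.25 against 10.44 to 11.48), *Cldn4* does not, and *Tjp1* spreads most in *Cmah*-null samples.

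*Cldn11* encodes the claudin of the basal cells that seal the stria vascularis and of central myelin. Its log2 signal was 13.77, 13.62 and 13.53 in WT and 13.92, 13.82 and 13.62 in *Cmah*-null samples, and it was bright on every array. The groups overlapped, and the lowest *Cmah*-null value equalled the middle WT value at this precision. The difference was 0.15 on the log2 scale (SE 0.11, 95% interval -0.13 to 0.42, adjusted p = 0.742 in limma). In this fit the interval leaves out a change of 1.5-fold, which is 0.585 in log2, in either direction. That width rests on the variance prior. With a trended robust prior the same difference had an unadjusted limma p of 0.532, against 0.232, and no interval was computed. Without the quantile step, with arrays scaled to the same median, the difference was 0.63, but that scaling also moved the median of all detected probes from 0.026 to 0.30. Among 11 measured genes of oligodendrocytes, the myelin source of *Cldn11*, 9 were lower and 2 higher in *Cmah*-null samples. The median of that list was 9.52 to 11.42 in WT and 9.93 to 10.28 in *Cmah*-null samples. The part of these cells in the *Cldn11* signal was not tested.

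*Cldn9* and *Cldn14* encode claudins of the organ of Corti, where they seal the upper edges of hair cells and supporting cells. *Cldn9* read 8.06, 8.23 and 8.28 in WT and 8.28, 8.29 and 8.21 in *Cmah*-null samples. These are the tightest values of the detected members, with a range of 0.21 in WT and 0.086 in *Cmah*-null samples. The difference was 0.071 (SE 0.085, 95% interval -0.14 to 0.28, adjusted p = 0.838 in limma), an interval again within 1.5-fold in either direction for this fit. *Cldn14* read 7.31, 7.41 and 7.27 in WT and 7.14, 7.23 and 7.24 in *Cmah*-null samples, with detection p between 0.0852 and 0.544. All 3 *Cmah*-null values were below all WT values, but none was above background, so no fold is given. Of the 11 measured hair cell markers 7 were higher and 4 lower in *Cmah*-null samples, with list medians of 7.29 to 7.60 in WT and 7.45 to 7.50 in *Cmah*-null samples, and 0 passed 1.5-fold with an unadjusted p under 0.05. At an unadjusted p under 0.05 alone 2 did in limma, *Otof* (0.55) and *Gfi1* (0.43, groups not overlapping), both named after their values were seen. The other markers detected on all 6 arrays, *Myo7a* (0.085) and *Tmc1* (0.17), did not. Without the share of all probes at that p, which was not computed, the count is not read as a result about hair cells. The part of hair cells in the *Cldn9* and *Cldn14* values was not tested.

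*Cldn1*, *Cldn3* and *Cldn4* are claudins of many lining epithelia. *Cldn1* makes the barrier of the skin, and *Cldn3* and *Cldn4* are common in glands and ducts and are described in the cochlear epithelium as well. *Cldn3* read 9.93, 10.00 and 10.25 in WT and 10.44, 10.44 and 11.48 in *Cmah*-null samples. Every *Cmah*-null sample was above every WT sample, with *Cmah*-null replicate 3 standing apart at the top. The WT mean was 10.06 ± 0.17 (SD, n = 3) and the *Cmah*-null mean 10.78 ± 0.60 (SD, n = 3), a difference of 0.72 or 1.65-fold. The standard error was 0.30 and the 95% interval -0.026 to 1.47, and neither the unadjusted p of 0.0562 nor the adjusted p of 0.595 in limma passed. Non-overlap was frequent among all probes, at 16.4%, and at 19.3% among probes detected on all 6 arrays, and of the members it was seen in *Cldn3* and in the undetected *Cldn14*.

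*Cldn4* read 8.10, 8.94 and 9.69 in WT and 9.21, 9.55 and 10.36 in *Cmah*-null samples. WT replicate 3 lay above *Cmah*-null replicates 1 and 2, so the groups overlapped. Its spread over all 6 arrays, 2.26, was the widest of the members, and 1.60 of it lay among WT samples alone. The WT mean was 8.91 ± 0.80 (SD, n = 3) and the *Cmah*-null mean 9.70 ± 0.59 (SD, n = 3), a difference of 0.80 or 1.74-fold (SE 0.48, 95% interval -0.39 to 1.98, adjusted p = 0.690 in limma). *Cldn1* read 8.49, 8.63 and 9.27 in WT and 9.06, 9.11 and 8.82 in *Cmah*-null samples. WT replicate 3 was its highest array and the groups overlapped, with a difference of 0.20 (SE 0.22, 95% interval -0.34 to 0.75, adjusted p = 0.818 in limma).

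The calls for these claudins turned on single arrays. *Cldn3* was 0.38 without *Cmah*-null replicate 3, under 1.5-fold though with an unadjusted p of 0.0205 in limma. It passed 1.5-fold with an unadjusted p under 0.05 without *Cmah*-null replicate 1 (0.90), without *Cmah*-null replicate 2 (0.90) and with those arrays averaged (0.90). *Cldn4* was 0.39 without WT replicate 1 and 0.47 without *Cmah*-null replicate 3, and it passed at 1.19 without WT replicate 3. *Cldn1* was 0.44 without WT replicate 3 (unadjusted p = 0.0196 in limma), 0.12 without WT replicate 2 and 0.051 without WT replicate 1. The arrays also differed in the median number of beads per probe, which was 32 to 34 on WT replicate 1 and *Cmah*-null replicates 1 and 2 and 38 to 39 on the others. Within the arrays with fewer beads the difference was 0.51 for *Cldn3*, 1.28 for *Cldn4* and 0.60 for *Cldn1*, and within the others it was 1.35, 1.04 and -0.13. With the bead number as a block *Cldn3* (0.93) and *Cldn4* (1.16) both passed 1.5-fold with an unadjusted p under 0.05, as they did under median scaling (1.17 and 1.13). None of these fits brought either gene to an adjusted p under 0.05 in limma.

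Markers of surface epithelium differed in the same direction as these claudins. Of 13 measured markers of the epidermis and other surface epithelia 11 were higher and 2 lower in *Cmah*-null samples, with a median difference of 0.50. *Dsp* and *Pkp1*, which build desmosomes, and *Sfn* passed 1.5-fold with an unadjusted p under 0.05 in limma, at 1.24, 1.16 and 0.70. None of them passed without WT replicate 1 (0.96, 0.83 and 0.64) or without WT replicate 2 (1.07, 1.00 and 0.60). *Dsp* (0.98) and *Pkp1* (0.99) did not pass without *Cmah*-null replicate 3. *Pkp1* did not pass without *Cmah*-null replicate 1 (1.25), without *Cmah*-null replicate 2 (1.24) or with those arrays averaged (1.24), nor *Sfn* without *Cmah*-null replicate 2 (0.53). The median signal of the list was 10.10 to 10.68 in WT and 10.76 to 10.81 in *Cmah*-null samples. *Krt10*, a keratin of the outer epidermis, read 11.73, 12.86 and 14.29 in WT and 13.67, 13.77 and 14.85 in *Cmah*-null samples. *Krt10* was chosen here after its values were seen, since its order over the arrays was that of *Cldn4*. Other markers of the list were ordered differently: *Krt8* (10.54), *Krt18* (9.71) and *Krt19* (7.58) were lowest in *Cmah*-null replicate 3, and *Krt5* and *Krt14* were lower there than in *Cmah*-null replicates 1 and 2. *Dsg1a* was the list's one marker detected on no array. The part of surface epithelium in the *Cldn3* and *Cldn4* values was not tested. Markers of the choroid plexus and meninges were higher too, 9 of 10, with list medians of 9.68 to 9.99 in WT and 10.21 to 10.67 in *Cmah*-null samples.

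**Figure D2:**
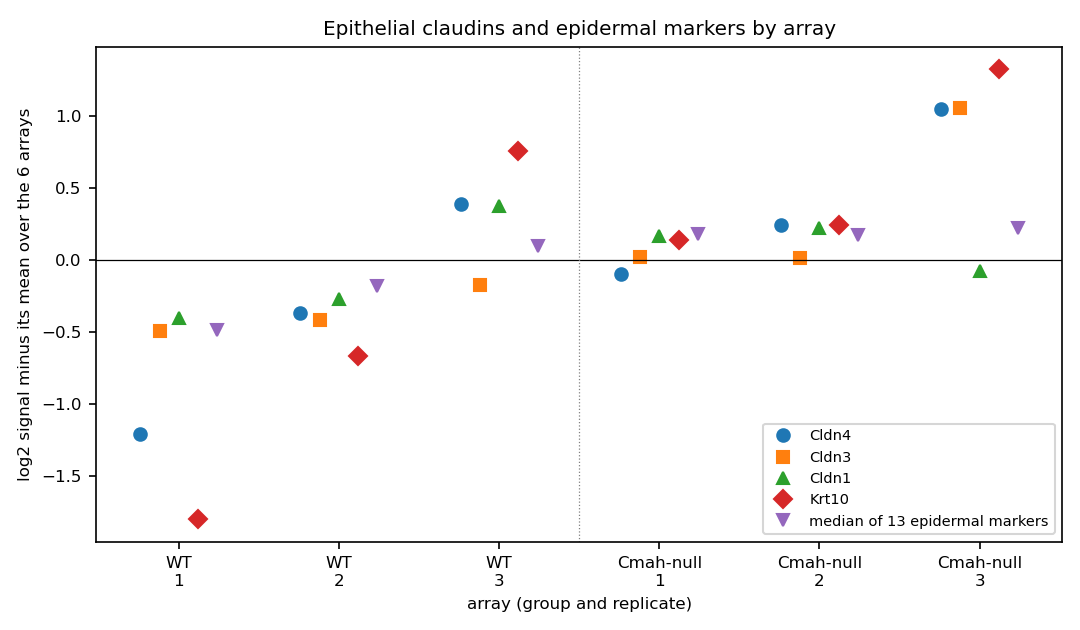
Log2 signal minus its mean over the 6 arrays (y axis) for *Cldn4*, *Cldn3*, *Cldn1*, *Krt10* and the median of 13 epidermal markers, by array (x axis; the dotted line parts WT from *Cmah*-null). *Cldn4* and *Krt10* are lowest in WT replicate 1 and highest in *Cmah*-null replicate 3, while *Cldn1* is highest in WT replicate 3.

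*Cldn3* and *Cldn4* are next to each other on chromosome 5 (band 5qG2), with 0 genes between them in the RefSeq table, and their 250 bases before the transcription start are shown because the neighbours had the largest differences. The sequences are from RefSeq on build GRCm38.p6, on the strand of the gene, at chr5:134985964-134986213 (plus strand) for *Cldn3* and chr5:134946935-134947184 (minus strand) for *Cldn4*. Capitals mark the GC box GGGCGG or its reverse complement CCGCCC.
*Cldn3*: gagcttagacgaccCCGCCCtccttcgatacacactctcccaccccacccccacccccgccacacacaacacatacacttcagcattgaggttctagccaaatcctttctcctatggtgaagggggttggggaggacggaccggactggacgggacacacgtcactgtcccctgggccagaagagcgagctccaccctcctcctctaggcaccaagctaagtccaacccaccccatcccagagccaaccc
*Cldn4*: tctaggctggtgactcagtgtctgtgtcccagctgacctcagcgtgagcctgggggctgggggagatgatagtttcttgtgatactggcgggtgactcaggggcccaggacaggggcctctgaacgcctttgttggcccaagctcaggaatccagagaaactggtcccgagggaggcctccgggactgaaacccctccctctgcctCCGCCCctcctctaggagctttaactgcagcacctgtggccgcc
Each held 1 GC box, which 32.74% of 32851 promoter windows of the same length held. The grainyhead site AACCGGTT, searched on both strands and with no overlap with the GC box, was in neither, and 0.12% of promoter windows held it. Over the members, 8 had an entry in the promoter table, with 12 start sites in all, of which 8 held a GC box and 0 a grainyhead site. The *Marveld2* windows overlap and share their GC box, and the *Ocln* windows overlap too, so the windows are not independent. A match describes letters in a window and shows no bound factor.

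*Ocln* encodes occludin and *Marveld2* tricellulin, whose genes lie on chromosome 13 with 2 genes between them. *Ocln* read 7.66, 7.81 and 8.15 in WT and 7.97, 7.79 and 7.64 in *Cmah*-null samples, and the groups overlapped. The difference was -0.072 (SE 0.16, 95% interval -0.46 to 0.32, adjusted p = 0.918 in limma), and its sign turned to 0.067 without WT replicate 3, to 0.0067 without *Cmah*-null replicate 3 and to 0.023 under median scaling. *Marveld2* read 6.92, 6.89 and 7.07 in WT and 7.16, 7.06 and 7.08 in *Cmah*-null samples, with detection p between 0.472 and 0.977. These values were at background on every array, so their difference is not read as a change.

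*Tjp1* encodes ZO-1, the scaffold under the strands. It read 8.76, 9.64 and 9.56 in WT and 8.57, 8.21 and 10.02 in *Cmah*-null samples. *Cmah*-null replicate 3 was the highest of all arrays and *Cmah*-null replicates 1 and 2 the lowest, so the spread in *Cmah*-null samples, 1.81, was larger than the difference of -0.39 between the groups (SE 0.52, 95% interval -1.66 to 0.89, adjusted p = 0.857 in limma). Without *Cmah*-null replicate 3 the difference was -0.93 and passed 1.5-fold with an unadjusted p of 0.0232. It was -0.67 without WT replicate 1, -0.23 without WT replicate 2, -0.20 without *Cmah*-null replicate 1 and -0.027 without *Cmah*-null replicate 2, and with the bead number as a block it was 0.024. Within the arrays with fewer beads it was -0.37 and within the others 0.42.

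**Figure D3:**
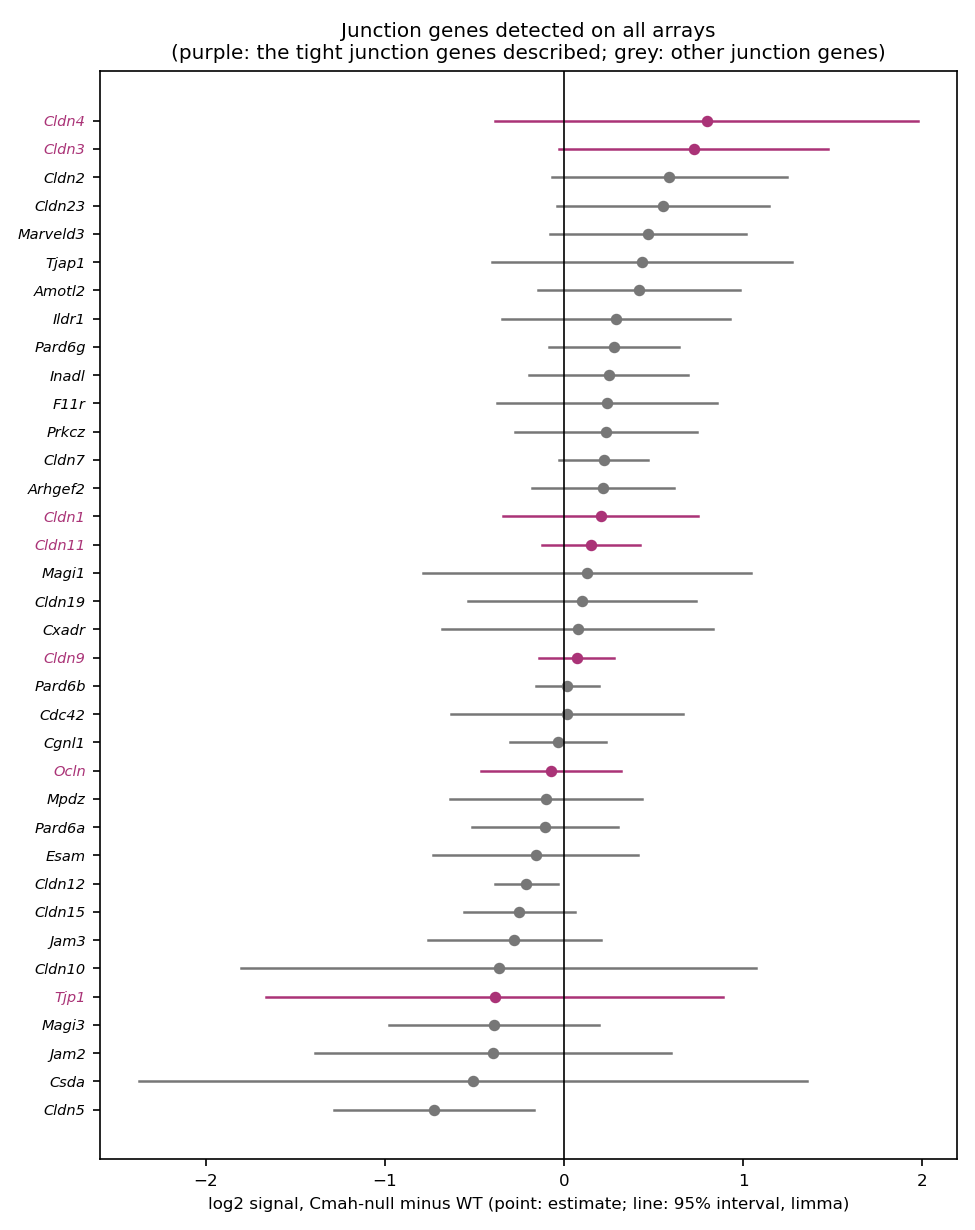
Difference in log2 signal, *Cmah*-null minus WT (x axis), with its 95% interval from limma, for the 7 tight junction genes described (purple) and 29 of the 30 other junction genes (grey) detected on all 6 arrays; 1 is not shown. The intervals of all 7 cross 0, *Cldn4* (0.80) and *Cldn3* (0.72) lie at the top and *Cldn5* (-0.73) at the bottom.

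The other genes of the junction gave no common direction. Of 60 listed, 45 were measured, 25 were higher and 20 lower in *Cmah*-null samples, and the median difference was 0.024. By role, 8 of 14 other claudins were higher and 6 lower, as were 4 and 5 of 9 other membrane proteins, 7 and 5 of 12 other scaffold proteins and 6 and 4 of 10 proteins of the polarity complexes. At 1.5-fold with an unadjusted p under 0.05, 0 were higher and 1 lower, *Cldn5*, and limma gave no adjusted p under 0.05 among them. Unadjusted, 3 had a limma p under 0.05 by their brightest probe, *Cldn5*, *Cldn12* (-0.21) and *Cldn6* (0.21, detected on 4 of the 6 arrays). This count too has no share of all probes beside it and is not read as a result about the junction. Of the further probes, ILMN_2490495 of *Inadl*, detected on all 6 arrays, had 0.52 (unadjusted p = 0.00154, adjusted p = 0.397 in limma). The brightest *Inadl* probe had 0.25 (unadjusted p = 0.218 in limma). ILMN_2723524 of *Tjp3*, detected on 2 arrays, had -0.22 (unadjusted p = 0.0338 in limma). All but *Cldn5* were named after their values were seen. By brightest probe the groups did not overlap for 6 of the 45, where 16.4% of all probes did not. Genes detected on no array were among the 6.

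*Cldn5*, the claudin of blood vessel endothelium, read 10.99, 11.41 and 11.49 in WT and 10.29, 10.43 and 10.98 in *Cmah*-null samples. All *Cmah*-null samples were below all WT samples, and the difference was -0.73 (SE 0.23, unadjusted p = 0.0188, adjusted p = 0.524 in limma). The call was lost, at an unadjusted p of 0.0602 to 0.0631 in limma, without WT replicate 2 (-0.67), without WT replicate 3 (-0.63), without *Cmah*-null replicate 1 (-0.59), without *Cmah*-null replicate 2 (-0.66) and with those *Cmah*-null arrays averaged (-0.62). It was lost too under median scaling (-0.26) and with the bead number as a block, where the difference of -0.55 was under 1.5-fold. Of 9 endothelial markers 4 were higher and 5 lower, with list medians of 9.0 to 9.86 in WT and 9.11 to 9.69 in *Cmah*-null samples. The part of endothelium in the *Cldn5* value was not tested.

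Among the largest positive differences of the other junction genes detected on all 6 arrays was that of *Cldn2*, a claudin of leaky epithelia. *Cldn2* read 10.65, 10.00 and 10.31 in WT and 11.16, 11.15 and 10.41 in *Cmah*-null samples, a difference of 0.59 (adjusted p = 0.617 in limma), and *Cmah*-null replicate 3 was its lowest *Cmah*-null array. *Cldn2* passed 1.5-fold with an unadjusted p under 0.05 without *Cmah*-null replicate 3 (0.84), without WT replicate 1 (0.75) and under median scaling (1.03), and it was 0.38 with the bead number as a block. After *Cldn5*, the next lower mean was that of *Csda*, a DNA-binding protein found at junctions. It read 10.64, 11.72 and 10.92 in WT and 9.77, 9.70 and 12.28 in *Cmah*-null samples, a difference of -0.51 (adjusted p = 0.870 in limma), with *Cmah*-null replicate 3 on the other side of WT from replicates 1 and 2. Without *Cmah*-null replicate 3 the difference in *Csda* was -1.36 and passed 1.5-fold with an unadjusted p of 0.00716 in limma. It was -0.10 without *Cmah*-null replicate 1, -0.068 without *Cmah*-null replicate 2, -0.085 with those arrays averaged, -0.19 without WT replicate 2, -0.035 under median scaling and 0.029 with the bead number as a block. These values are of the brightest *Csda* probe. A further probe, ILMN_2705078, detected on all 6 arrays, read 9.73, 9.29 and 8.75 in WT and 8.56, 8.72 and 9.31 in *Cmah*-null samples. There *Cmah*-null replicate 3 lay within the WT range.

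Genes with the most similar pattern over the 6 arrays were listed for *Cldn11* and *Cldn4*. The measure was Pearson's r of the log2 signal, over genes detected on all 6 arrays with a log2 range of at least 1. It is a description over 6 arrays, of which *Cmah*-null replicates 1 and 2 were nearly alike, among 3920 and 3919 candidates. For *Cldn11* they were D330017J20Rik (r = 0.989), *Ccnt1* (0.958), D10Bwg1379e (0.952), *Zfp238* (0.951) and *Mapk6* (0.949). For *Cldn4* they were A230050P20Rik (r = 0.991), *Wnt7b* (0.991), 5830457O10Rik (0.988), *Slc22a18* (0.987) and *Krt10* (0.985), and *Krt10* is also one of the epidermal markers above.

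**Figure D4:**
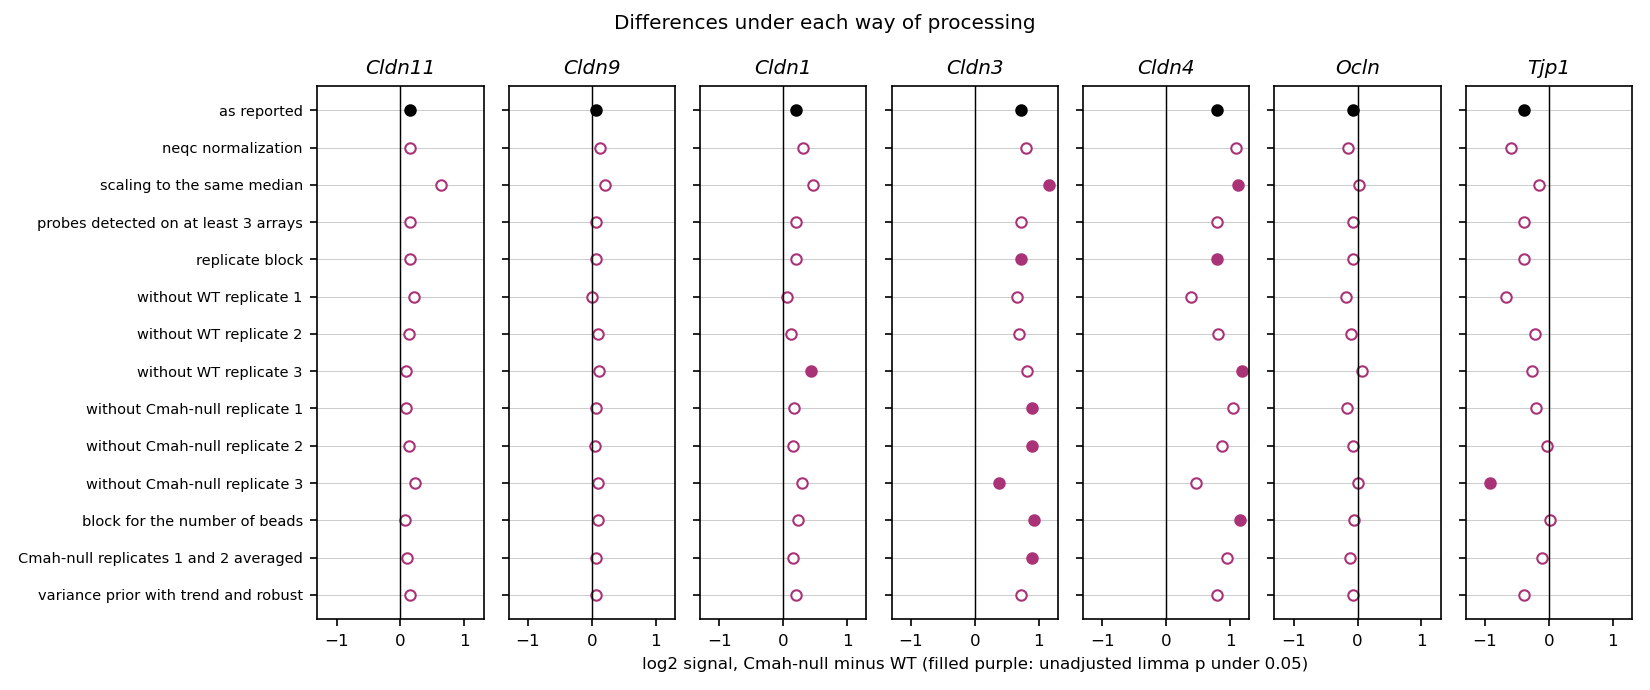
Difference in log2 signal, *Cmah*-null minus WT (x axis), of the 7 detected members under each way of processing (rows), with the reported value in black and purple points filled where the unadjusted limma p was under 0.05. *Cldn3* (0.38 to 1.17) and *Cldn4* (0.39 to 1.19) stay above 0 under all 13 alternatives. So do *Cldn1* (0.051 to 0.47), *Cldn9* (0.0077 to 0.20) and *Cldn11* (0.076 to 0.63), while *Tjp1* (-0.93 to 0.024) and *Ocln* (-0.18 to 0.067) reach the other side.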

How the data were processed

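Total RNA of cochlear tissue was hybridized to Illumina MouseRef-8 v2 arrays, with 1 array for each sample. Deposited by the authors were bead intensities averaged per probe and not normalized, with bead standard errors, bead numbers (other values) and a detection p-value. They also deposited log2 values, which equalled quantile-normalized log2 intensities without background correction to within 5.0e-07. Columns of their own fold change and local pooled error p were not used, and 12 further columns of per-sample values in that table were not used.

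The log2 values of all 25697 probes were fitted by lmFit and eBayes of limma (version 3.58.1, R 4.3.3), two-sided, with Benjamini-Hochberg adjustment over all probes. The threshold of 1.5-fold with an unadjusted p under 0.05 followed the cut-offs of the study, with the p taken from limma. A gene's brightest probe stood for it, and a detection p under 0.05 counted as detected. Precision is limited by the number of arrays. The fit was tested on simulated data. Members and lists were chosen with earlier results of these data known. The named genes were all members, other junction genes past the threshold, the 2 largest differences each way among those detected on all 6 arrays (1 of these genes is not reported here), and the 5 genes most like *Cldn11* and like the detected member of widest range. Alternatives were neqc (offset 16), median scaling, a detection filter (3 arrays), blocks for replicate or bead number, leaving out each array, averaging *Cmah*-null replicates 1 and 2, and a trended robust prior. Probe sequences came from the deposited annotation and promoters from RefSeq, where all 9 gene IDs matched. Figures used matplotlib 3.10.9. Marker lists whose genes are not all named here were also counted higher and lower in *Cmah*-null samples. They were hair cell (7 and 4), strial marginal cell (6 and 3), strial intermediate cell (2 and 4), supporting cell (7 and 3), Schwann cell (3 and 4), muscle (0 and 12), brown fat (0 and 9) and blood (3 and 8). The median difference was -0.51 for the muscle list and -0.70 for the brown fat list.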

Additional observations from a re-analysis of the deposited data

How the results depend on the processing

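No member had an adjusted p under 0.05 in limma under any alternative. The count of members at 1.5-fold with an unadjusted p under 0.05, 0 as reported, was 2 under median scaling, 2 with the replicate block, 2 with the block for the number of beads and 1 with *Cmah*-null replicates 1 and 2 averaged. It was 0 under neqc, the detection filter and the trended prior, and ran from 0 to 1 when single arrays were left out. The pair counted was *Cldn3* and *Cldn4*, and the single genes were *Cldn3*, *Cldn4* (without WT replicate 3) or *Tjp1* (without *Cmah*-null replicate 3). Over all probes that count was 697 as reported, 1482 under neqc, 2488 under median scaling, 811 with the replicate block and 1728 with the bead block, and ran from 429 to 1037 when single arrays were left out. Replicate numbers do not pair the samples by the labels, and the deviations of same-numbered samples correlated at 0.022, -0.17 and 0.013 over probes detected on all 6 arrays. The members that did not overlap, 2 as reported, were 1 under the detection filter, 3 with the arrays averaged, and 2 to 5 when single arrays were left out. Fewer arrays make non-overlap more frequent for any probe. Its share of all probes was 16.4% with all 6 arrays and was not computed for the alternatives. The median difference of all 9 members (the 7 detected under the detection filter), 0.14 as reported, was 0.089 to 0.20 under the other alternatives and 0.051 to 0.15 when single arrays were left out. As reported, that median is the value of *Marveld2*, which was at background. *Ocln*, at -0.18 to 0.067 when single arrays were left out, reversed to 0.023 under median scaling, 0.067 without WT replicate 3 and 0.0067 without *Cmah*-null replicate 3, and *Tjp1* to 0.024 with the bead block. Where not set by fewer arrays, the cause was not tested. Averaging all detected probes of a gene could give no other value, since each member had 1 probe. *Cldn14* and *Marveld2* were not above background, so differences in them were not detectable here.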
